A study of Mus musculus with 2 samples.

Results

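The dystrophin glycoprotein complex ties the actin cytoskeleton of a muscle fibre to the basement membrane around it, and 9 of the 27998 genes in the count tables were taken here for it by their symbols. Dmd encodes dystrophin, the rod-shaped protein that binds actin inside the membrane, and Utrn encodes its relative utrophin. Dag1 encodes dystroglycan, the membrane receptor, and Sgca, Sgcb and Sgcd encode the α-, β- and δ-sarcoglycans beside it. Sntb1 and Dtna encode β1-syntrophin and α-dystrobrevin, which bind dystrophin on its inner side. Lama2 encodes the laminin α2 chain, the ligand that dystroglycan holds in the basement membrane. Loss of dystrophin causes Duchenne muscular dystrophy, loss of a sarcoglycan causes limb-girdle dystrophy and loss of laminin α2 causes a congenital dystrophy. In adult muscle, utrophin protein is known for its place at the neuromuscular junction, while dystrophin lines the whole fibre membrane.

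Levels were read by single-nucleus RNA-Seq from gastrocnemius-plantaris (GP) muscle, the calf muscle of the hindlimb, of mice on a B6C3F1 background. Ctrl mice were Net39 fl/fl without Cre, and cKO mice were HSACreERT2;Net39 fl/fl, in which a tamoxifen-induced Cre under the human skeletal actin promoter deletes Net39 in muscle fibres. Both groups carried the floxed allele, both had been given tamoxifen and both were 5 months old, 3 months after tamoxifen. Each group had 1 library, made from nuclei of 3 pooled muscles, so the spread between animals is unknown and no test was possible. Every interval below is a 95% interval for counting error only.

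The Ctrl library gave 3526 nuclei with a median of 2039.5 unique molecular identifiers (UMIs, 1 for each captured RNA molecule), and the cKO library gave 3595 nuclei with a median of 1612. The 2 libraries shared 5 cell barcodes. Levels are given as CPM, the UMIs of a gene divided by all UMIs of the same nuclei and scaled to a common total. Malat1, a nuclear noncoding RNA, held 25.5% of the Ctrl and 30.7% of the cKO UMIs. Plpp7, the gene of Net39, was at 49.9 CPM in Ctrl fibre nuclei and 45.1 CPM in those of cKO, a log2 ratio of -0.15 (-0.40 to 0.10). This level did not tell the libraries apart. By the study's methods the deletion takes out the first exon and the kit reads transcript ends, and where the reads of Plpp7 lie was not tested, so this level is no check of the labels.

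Nuclei were grouped by genes other than the 9 described here. A nucleus counted as junctional, FAP, endothelial or mural when it held at least 3 UMIs of that list of markers, and the others were grouped by their main myosin, the adult myosin gene with at least 60% of the myosin UMIs of the nucleus. The 4 genes read for this were Myh7, Myh2, Myh1 and Myh4. Myh7 marks slow fibres, and Myh2, Myh1 and Myh4 mark fast fibres of types IIa, IIx and IIb. These main-myosin nuclei numbered 2368 in Ctrl and 2408 in cKO. Myh7 nuclei numbered 18 in Ctrl and 277 in cKO, so values for slow fibres in Ctrl rest on few nuclei. Nuclei of the neuromuscular junction (NMJ) numbered 71 in Ctrl and 55 in cKO, and those of the myotendinous junction (MTJ), where fibres meet tendon, 69 and 57. Fibro-adipogenic progenitors (FAPs), the fibroblast-like cells between fibres, gave 201 and 58 nuclei. Endothelial markers gave 61 and 30 nuclei, and markers of mural cells, the pericytes and smooth muscle cells of vessels, 41 and 18. In each of these classes 5 to 7 of its own markers were detected in either library, and no marker of another class was among its 10 leading genes.

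Positions are those of the GRCm38 build. Dmd spans chrX:82948870-85206141 on the plus strand, Sgcd spans chr11:46896253-47988969 on the minus strand and Lama2 spans chr10:26980036-27619758 on the minus strand. Utrn spans chr10:12382188-12869365 and Dag1 chr9:108204634-108263958, both on the minus strand. Sgca lies at chr11:94962791-94976327, Sgcb at chr5:73632749-73647790 and Sntb1 at chr15:55636388-55906949, all on the minus strand. A gene on the opposite strand that is also in the count tables lies within Dmd (Tsga8), Sgca (Hils1) and Lama2 (4930579H20Rik). The study's methods give default settings for the counting and do not name strand, so reads of these pairs are taken here as uncertain.

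Of the 9 members, 7 had a window in the set of RefSeq promoter windows used here (GRCm38.p6), from 250 bases before to 50 bases after a transcript start. The set held none for Dtna or Sntb1, although both have annotated coding transcript starts in GENCODE M21. The windows of Dmd (chrX:82948620-82948919, plus strand), Sgcd (chr11:47379276-47379575, minus strand) and Lama2 (chr10:27616893-27617192, minus strand) are shown because these 3 genes had their highest level among the 9 classes plotted in MTJ nuclei in both libraries. Capitals mark a CArG box, the site known to be bound by serum response factor, searched on both strands.
Dmd: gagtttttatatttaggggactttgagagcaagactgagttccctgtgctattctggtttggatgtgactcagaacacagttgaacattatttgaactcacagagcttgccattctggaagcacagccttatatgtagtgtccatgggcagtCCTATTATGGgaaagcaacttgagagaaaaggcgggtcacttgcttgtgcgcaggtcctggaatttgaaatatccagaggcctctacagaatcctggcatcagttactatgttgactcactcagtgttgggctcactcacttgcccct
Sgcd: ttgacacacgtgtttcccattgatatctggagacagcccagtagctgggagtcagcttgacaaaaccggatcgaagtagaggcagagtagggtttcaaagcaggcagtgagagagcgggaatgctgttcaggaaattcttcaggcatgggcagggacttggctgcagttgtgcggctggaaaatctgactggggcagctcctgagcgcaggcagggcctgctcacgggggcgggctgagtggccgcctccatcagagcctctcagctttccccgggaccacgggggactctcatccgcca
Lama2: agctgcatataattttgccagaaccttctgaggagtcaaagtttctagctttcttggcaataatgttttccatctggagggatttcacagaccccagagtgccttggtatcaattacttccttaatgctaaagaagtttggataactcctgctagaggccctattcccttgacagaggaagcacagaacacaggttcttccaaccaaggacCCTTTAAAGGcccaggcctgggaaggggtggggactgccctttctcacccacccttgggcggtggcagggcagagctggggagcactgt
Counted from the transcript start, the CArG box of Dmd begins at position -98 and that of Lama2 at -39, and the Sgcd window holds no match. Of the 32851 windows of this length in the table, 1.63% hold a CArG box. The 7 members had 9 windows in all, and 2 of the 9 had a match, the windows shown for Dmd and Lama2. A second Dmd window, at an internal start, held neither motif. The E-box, CANNTG, the shorter motif of myogenic factors, was in a window of 6 of the 7 members and in 72.3% of all windows. The Dmd window lies at the start of the gene as annotated, while those of Sgcd and Lama2 lie inside the annotated gene, which has transcripts that begin farther upstream.

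Dystrophin RNA was high in every fibre class and hardly differed between the libraries. In Ctrl, Dmd was at 11656 CPM in Myh7, 10939 in Myh2, 12735 in Myh1 and 11709 in Myh4 nuclei. In cKO, the same classes gave 12946, 11247, 12459 and 11903 CPM. The lowest and the highest of these values were 10939 and 12946 CPM, and Myh2 nuclei were the lowest of the 4 classes in both libraries. Over all main-myosin nuclei Dmd was at 11783 CPM (11700.5 to 11866) for Ctrl nuclei and 12034 CPM (11939 to 12129) for cKO nuclei, a log2 ratio of 0.03 (0.02 to 0.05). When each nucleus was thinned to 500 UMIs, 98.8% of Ctrl and 99.2% of cKO main-myosin nuclei still held a Dmd UMI.

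**Figure D1:**
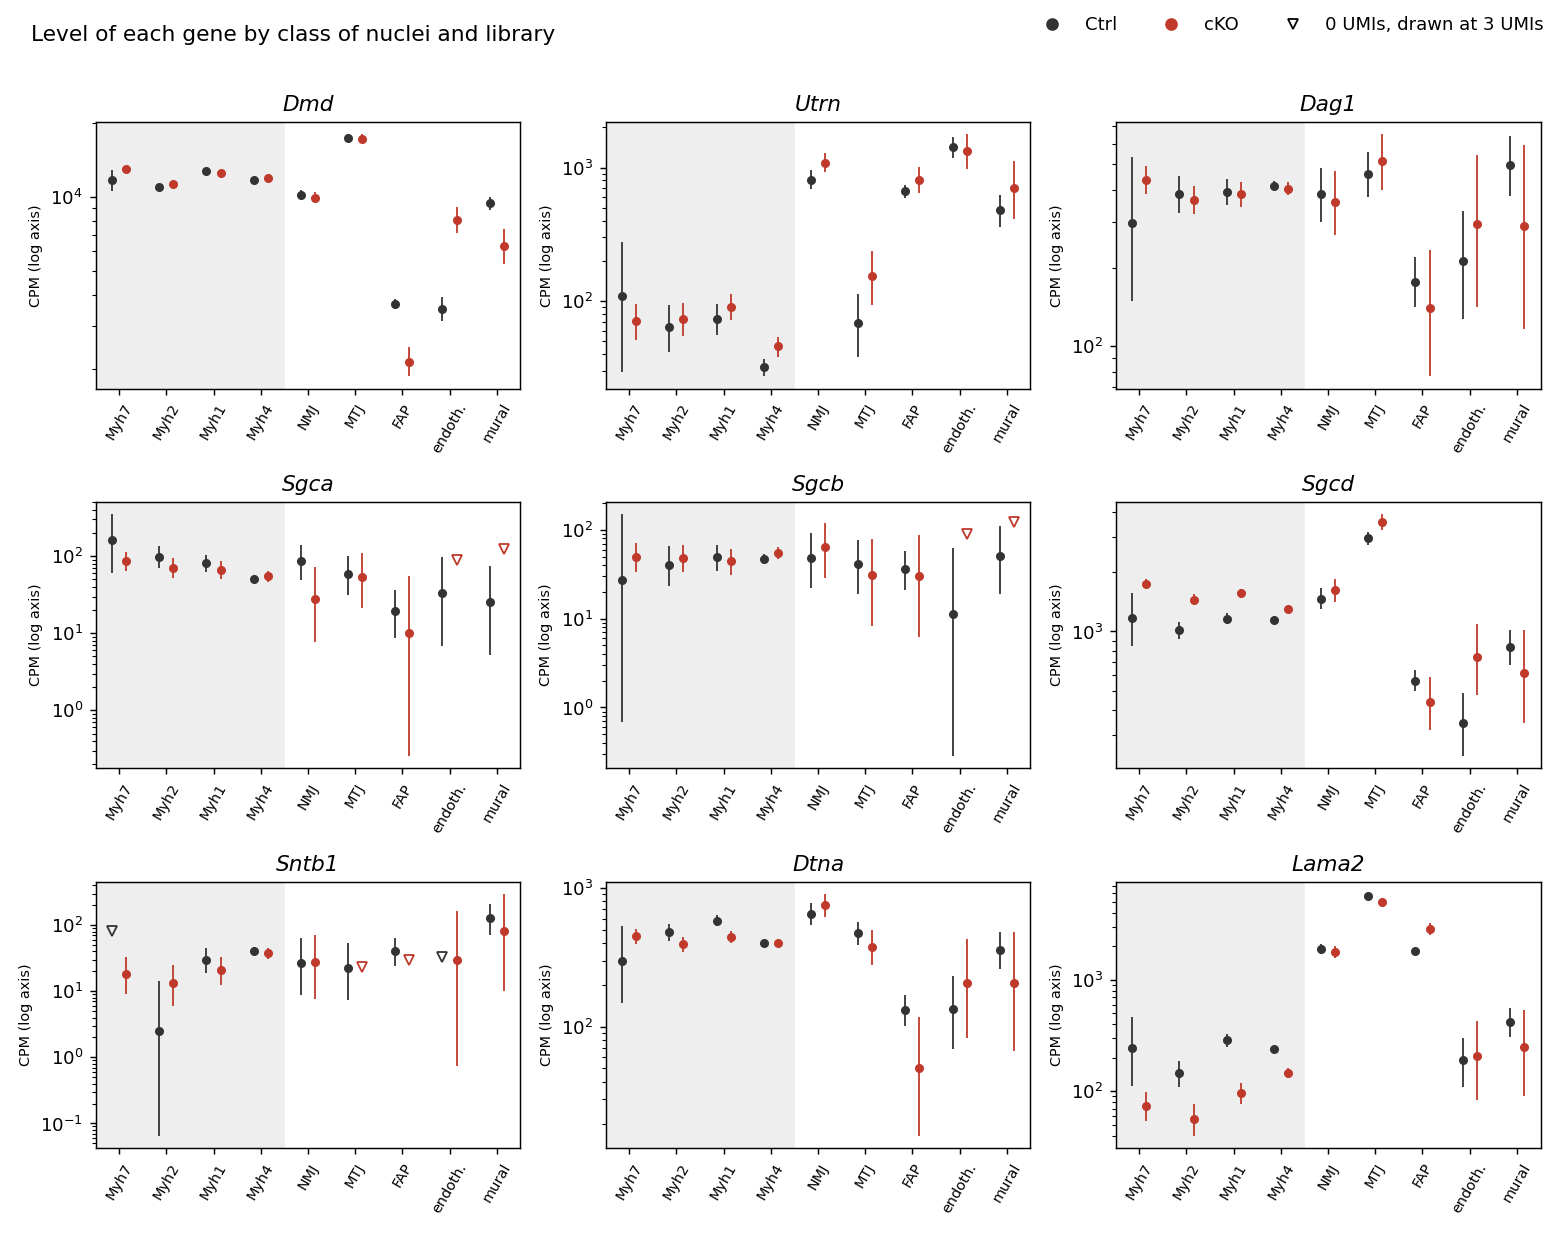
Level of each of the 9 genes in CPM (vertical log axes, a separate range for each gene) by class of nuclei (horizontal axis; the 4 main-myosin classes are shaded) in Ctrl (grey) and cKO (red), with exact 95% Poisson intervals for counting error; open triangles are 0 UMIs drawn at the level of 3 UMIs. Dmd, Sgcd and Lama2 peak in MTJ nuclei, Utrn is lowest in Myh4 nuclei, and Lama2 is lower in cKO in all 4 main-myosin classes.

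Dmd reached its highest level in MTJ nuclei, with 17349.5 CPM (16803 to 17909) for Ctrl nuclei and 17239.9 CPM (16534 to 17968) for cKO nuclei. This was 1.47-fold the main-myosin level (1.43 to 1.52) for Ctrl and 1.43-fold (1.37 to 1.49) for cKO, just short of 1.5-fold. NMJ nuclei went the other way, with 10197 CPM in the Ctrl and 9929 CPM in the cKO library, 0.865-fold (0.826 to 0.906) and 0.825-fold (0.782 to 0.870) of the main-myosin level. In order of level, the next class below MTJ was Myh1 in Ctrl and Myh7 in cKO, and both steps exceeded their counting intervals. In Ctrl the level of the 18 Myh7 nuclei did not differ from that of Myh4 or Myh2 nuclei beyond the interval. The Ctrl interval of Myh4 nuclei (11618 to 11801 CPM) lay above that of Myh2 nuclei (10615 to 11271 CPM).

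Outside the fibres Dmd was lower, and other fibre genes were detected in those nuclei too. FAP nuclei held 3674 CPM of Dmd in Ctrl and 2141 CPM in cKO, which was 31.2% and 17.8% of the main-myosin level. A list of 10 abundant fibre genes such as Ttn and Ckm, summed in the same FAP nuclei, was at 32.3% of its main-myosin level in Ctrl (28.6% to 60.7% across its genes) and 15.5% in cKO (10.6% to 37.3%). Acta1 set the top of that range in both libraries, and the next gene was at 36.8% in Ctrl (Tnnt3) and 30.9% in cKO (Cacna1s). Dmd lay within the range with or without Acta1 in both libraries. Endothelial nuclei gave 3509.7 CPM of Dmd in Ctrl and 8044 CPM in cKO, 29.8% and 66.8% of the main-myosin level, against 28.3% and 41.6% for the fibre genes. Mural nuclei gave 9403.5 and 6319 CPM, 79.8% and 52.5% of the main-myosin level, against 72.9% and 57.2% for the fibre genes. In all 3 classes the Dmd level moved between the libraries in the same direction as the fibre genes, and the part of free RNA, doublets or misplaced nuclei in it was not tested.

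Utrophin RNA was low in main-myosin nuclei and far higher in NMJ, endothelial, FAP and mural nuclei, as given below. Utrn was at 108 CPM in Myh7, 63.6 in Myh2, 73.6 in Myh1 and 31.8 in Myh4 nuclei of Ctrl, and at 70.9, 73.7, 90.4 and 45.7 CPM in the same classes of cKO. Myh4 nuclei, the fast IIb class, were lowest in both libraries, below the next class by a log2 ratio of 1.00 (0.33 to 1.61) among Ctrl and 0.63 (0.10 to 1.14) among cKO nuclei. The Ctrl Myh7 value rests on 4 UMIs. The other neighbouring fibre classes did not differ beyond their intervals.

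Utrn was far higher in NMJ nuclei, with 812 CPM (687 to 953) for Ctrl nuclei and 1090.0 CPM (925 to 1276) for cKO nuclei. These levels were 20.8-fold (16.9 to 25.6) and 18.2-fold (14.9 to 22.1) those of main-myosin nuclei. At 500 UMIs per nucleus, 26.8% of Ctrl and 47.3% of cKO NMJ nuclei held a Utrn UMI, against 1.98% and 2.33% of main-myosin nuclei. A narrower set of nuclei was chosen after seeing that the NMJ marker Musk and the mural marker Abcc9 were also present in main-myosin nuclei, at 276 and 275 CPM in Ctrl. With both left out of the markers, 29 Ctrl and 32 cKO nuclei counted as NMJ, with 1484 and 1903 CPM of Utrn.

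Of the 9 classes plotted, endothelial nuclei held most Utrn in both libraries, though in cKO the step to NMJ nuclei was within its interval and the narrower NMJ set was above endothelial nuclei in both libraries. They stood at 1415 CPM (1179.7 to 1684) for Ctrl nuclei and 1331 CPM (971 to 1781) for cKO nuclei. This was 36.3-fold (29.1 to 45.04) and 22.2-fold (15.9 to 30.4) the main-myosin level. FAP nuclei held 664 and 810.3 CPM, and mural nuclei 478 and 702 CPM. Without Musk and Abcc9 as markers, 25 Ctrl and 11 cKO nuclei counted as mural, with 884 and 872 CPM of Utrn. Utrn was thus above main-myosin nuclei by 11.7-fold or more in endothelial, FAP and mural nuclei of both libraries, where the fibre genes were below it in sum. A further 6 Ctrl and 5 cKO nuclei with adipocyte markers had 1055 and 1469 CPM. MTJ nuclei had 68.2 CPM in Ctrl from 15 UMIs and 154 CPM in cKO from 20 UMIs, 1.75-fold (0.965 to 2.94) and 2.56-fold (1.54 to 4.02) the main-myosin level, and the Ctrl interval includes 1.

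Between the libraries, Utrn in main-myosin nuclei was at 39.0 CPM (34.4 to 44.1) for Ctrl nuclei and 59.99 CPM (53.5 to 67.1) for cKO nuclei, a fold of 1.54 (1.30 to 1.82). It was the only member past 1.5-fold upwards, where 9.34% of the 10966 genes with at least 20 UMIs were past it. It fell short of 1.5-fold under 5 alternatives: the 4 classes weighted equally, all nuclei of no non-fibre class, at least 5 marker UMIs for a class, the mean of each nucleus's own CPM, and no doublets removed. Within single classes the log2 ratio was -0.61 in Myh7 (-2.07 to 1.33), 0.21 in Myh2 (-0.51 to 0.97), 0.30 in Myh1 (-0.22 to 0.81) and 0.53 in Myh4 nuclei (0.19 to 0.86), and with the 4 classes weighted equally it was 0.02. A single Myh1 nucleus held 29 of the 57 Ctrl UMIs of its class, and another held 17 of the 78 in cKO. The share of main-myosin nuclei with a Utrn UMI at 500 UMIs was 1.98% (1.46% to 2.63%) for Ctrl and 2.33% (1.76% to 3.01%) for cKO, and these intervals overlap. The main-myosin level was also only 5.88% of the FAP level in Ctrl and 7.40% in cKO, above 7 of the 8 FAP genes given with Lama2 in each library and below Bicc1.

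**Figure D2:**
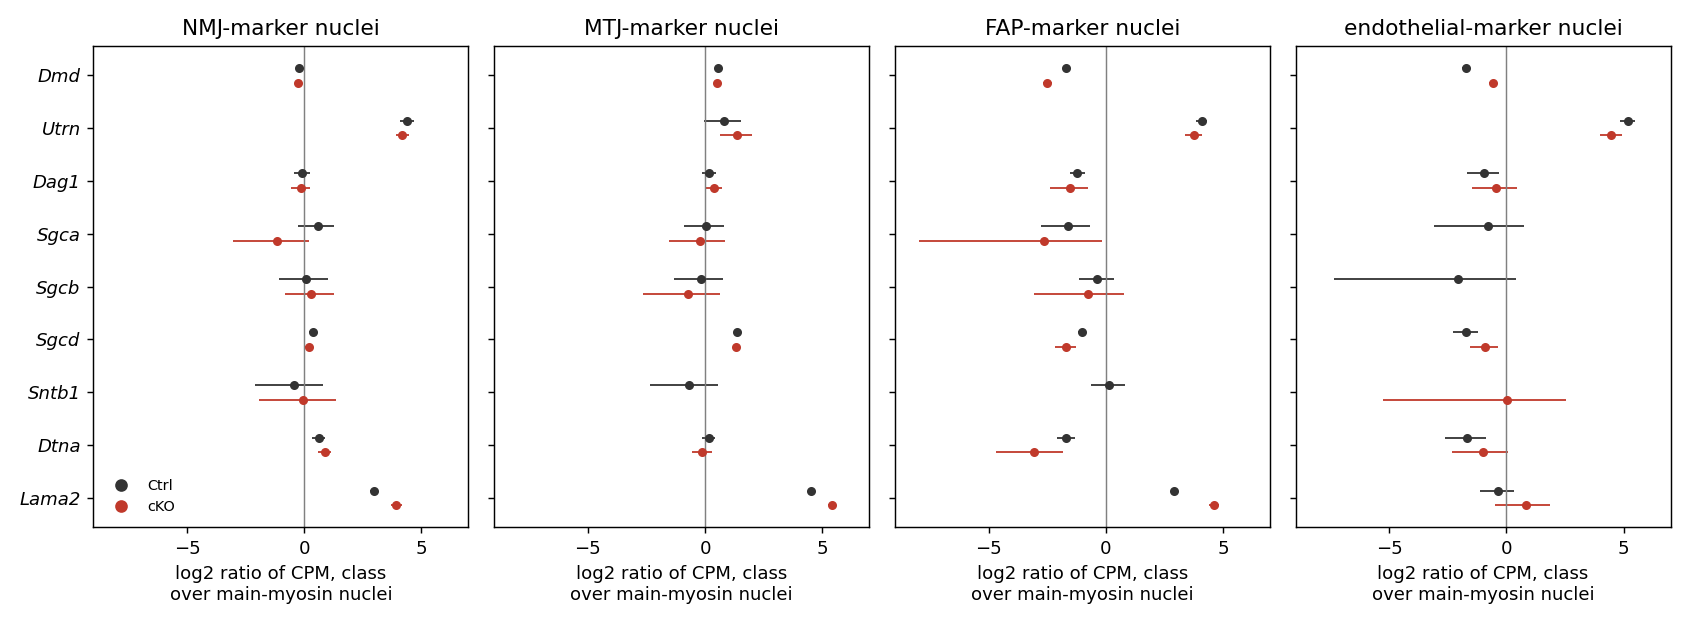
Log2 ratio of CPM in NMJ, MTJ, FAP and endothelial nuclei over main-myosin nuclei of the same library (horizontal axes) for each gene (vertical axis) in Ctrl (grey) and cKO (red), with exact 95% intervals for counting error; genes with 0 UMIs in a class have no point. Utrn stands far to the right in NMJ, FAP and endothelial nuclei and Lama2 in NMJ, MTJ and FAP nuclei, while Dmd, Dag1 and Sgcd are left of 0 in FAP nuclei.

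Dystroglycan RNA followed dystrophin in its flat pattern. Dag1 was at 298 CPM in Myh7, 384 in Myh2, 393 in Myh1 and 415 in Myh4 nuclei of Ctrl, and at 435, 366, 384 and 403 CPM in cKO. In order of level, no pair of neighbouring classes, junctional and vascular ones included, differed beyond its interval in either library. Classes farther apart in the order did differ. FAP nuclei were at 0.43-fold the main-myosin level (0.34 to 0.54) in Ctrl and 0.35-fold (0.19 to 0.59) in cKO. Over main-myosin nuclei the level was 409 CPM (394 to 425) for Ctrl nuclei and 398 CPM (381 to 416) for cKO nuclei, a log2 ratio of -0.04 (-0.12 to 0.04). FAP nuclei had 177 CPM from 83 UMIs in Ctrl and 140 CPM from 14 UMIs in cKO, 43.2% and 35.2% of the main-myosin level, above 9 of the 10 fibre genes there in each library and below Acta1.

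The 3 sarcoglycans did not share a pattern. Sgcd was at 1166 CPM in Myh7, 1012 in Myh2, 1162 in Myh1 and 1146 in Myh4 nuclei of Ctrl, and at 1732, 1446, 1558 and 1301 CPM in cKO. It was higher in cKO in each of the 4 classes, by log2 ratios of 0.57 (0.13 to 1.05), 0.52 (0.35 to 0.69), 0.42 (0.30 to 0.55) and 0.18 (0.12 to 0.24) in that order. None of these reached 1.5-fold, and over main-myosin nuclei the fold was 1.24 (1.20 to 1.28). The order of Myh4 and Myh2 nuclei differed between the libraries. In cKO, Myh2 nuclei were above Myh4 nuclei by a log2 ratio of 0.15 (0.05 to 0.25). In Ctrl, Myh4 nuclei were above Myh2 nuclei by 0.18 (0.03 to 0.33).

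Sgcd was highest in MTJ nuclei, with 2951 CPM (2729 to 3188) for Ctrl nuclei and 3577 CPM (3259.5 to 3917) for cKO nuclei. This was 2.59-fold (2.39 to 2.81) and 2.53-fold (2.30 to 2.78) the main-myosin level, so the step from fibre body to tendon end was nearly equal in both libraries. NMJ nuclei had 1467 and 1610.3 CPM, 1.29-fold (1.14 to 1.45) and 1.14-fold (0.993 to 1.30) the main-myosin level, and 2160 and 1741 CPM in the narrower NMJ set. FAP nuclei had 565 and 440.2 CPM, 49.6% and 31.1% of the main-myosin level, again above all fibre genes but Acta1.

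Sgca, the muscle-restricted sarcoglycan, was sparse in these nuclei. Its level over main-myosin nuclei was 58.3 CPM in Ctrl from 384 UMIs and 62.7 CPM in cKO from 320 UMIs, a log2 ratio of 0.11 (-0.11 to 0.32), and -0.50 with the 4 classes weighted equally. FAP nuclei held 9 Sgca UMIs in Ctrl and 1 in cKO, and endothelial nuclei held 3 and 0. In Ctrl Myh2 and Myh1 nuclei had 99.1 and 81.4 CPM against 51.3 CPM in Myh4 nuclei, while cKO gave 70.8, 67.2 and 54.9 CPM. The Myh4 class was the lowest of the 4 main-myosin classes in both libraries. In Ctrl its interval (45.4 to 57.7 CPM) lay below those of Myh2 (70.5 to 135.5) and Myh1 nuclei (62.55 to 104.1). In cKO it (46.7 to 63.98 CPM) overlapped those of Myh2 (52.2 to 93.8) and Myh1 nuclei (51.0 to 86.9), and ended just below that of Myh7 nuclei (64.06 to 112.5). Neighbours in the order of all classes plotted did not differ beyond their intervals. Sgcb was sparse too, at 46.6 CPM in Ctrl from 307 UMIs and 51.4 CPM in cKO from 262 UMIs, a log2 ratio of 0.14 (-0.10 to 0.38). None of its neighbouring classes differed beyond its interval.

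Of the inner-side partners, Dtna was highest in NMJ nuclei in both libraries, with 649 CPM (538 to 777) for Ctrl nuclei and 752 CPM (617 to 909) for cKO nuclei, though in Ctrl the step down to Myh1 nuclei was within its interval. These were 1.53-fold (1.26 to 1.83) and 1.83-fold (1.49 to 2.22) the main-myosin level, and in the narrower NMJ set, without Musk and Abcc9 as markers, Dtna was at 927 and 1039 CPM. Among the fibre classes Dtna was at 298 CPM in Myh7, 478 in Myh2, 580.1 in Myh1 and 400.0 in Myh4 nuclei of Ctrl, and at 449, 394, 445 and 399 CPM in cKO. In Myh1 nuclei the log2 ratio of cKO over Ctrl was -0.38 (-0.58 to -0.18), but the share of these nuclei with a Dtna UMI at 500 UMIs went the other way, 21.7% in Ctrl (17.1% to 26.9%) against 27.2% in cKO (22.8% to 32.0%), so no order is read from it. Over main-myosin nuclei the ratio was -0.05 (-0.13 to 0.04).

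Sntb1 was sparse, at 37.0 CPM in Ctrl from 244 UMIs and 29.0 CPM in cKO from 148 UMIs in main-myosin nuclei. Its log2 ratio was -0.35 (-0.66 to -0.05), short of 1.5-fold, and within Myh4 nuclei it was -0.13 (-0.48 to 0.20). With the 4 classes weighted equally it turned to 0.29. In Ctrl, Sntb1 was at 40.9 CPM in Myh4 and 29.7 in Myh1 nuclei, and 1 UMI in Myh2 and 0 UMIs in Myh7 nuclei were found. In cKO the 4 classes had 37.2, 20.9, 13.3 and 18.1 CPM in the same order. Ctrl mural nuclei had 128 CPM from 15 UMIs, 3.46-fold the main-myosin level (1.91 to 5.82), and cKO mural nuclei had 2 UMIs. The few nuclei with adipocyte markers held 21 Sntb1 UMIs in Ctrl and 12 in cKO, 1055 and 766 CPM, which is 28.5-fold (17.3 to 44.5) and 26.4-fold (13.3 to 47.5) the main-myosin level. NMJ nuclei held 5 and 4 Sntb1 UMIs, and MTJ nuclei 5 and 0.

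Of the 9 genes, that of the laminin ligand differed most between the libraries in main-myosin nuclei. Lama2 was at 244 CPM in Myh7, 145 in Myh2, 287 in Myh1 and 240.5 in Myh4 nuclei of Ctrl, and at 74.2, 56.0, 96.2 and 146 CPM in cKO. Every cKO class was below its Ctrl class, with log2 ratios of -1.72 (-2.77 to -0.50), -1.37 (-2.003 to -0.7536), -1.58 (-1.96 to -1.21) and -0.72 (-0.88 to -0.56). Over main-myosin nuclei Lama2 was at 240.3 CPM (229 to 252) for Ctrl nuclei and 117 CPM (108 to 127) for cKO nuclei, a fold of 0.488 (0.443 to 0.536). Lama2 was the only member past 1.5-fold downwards, where 12.3% of the 10966 genes were past it. The median log2 ratio of all these genes was -0.06, and that of the 9 members was 0.03.

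**Figure D3:**
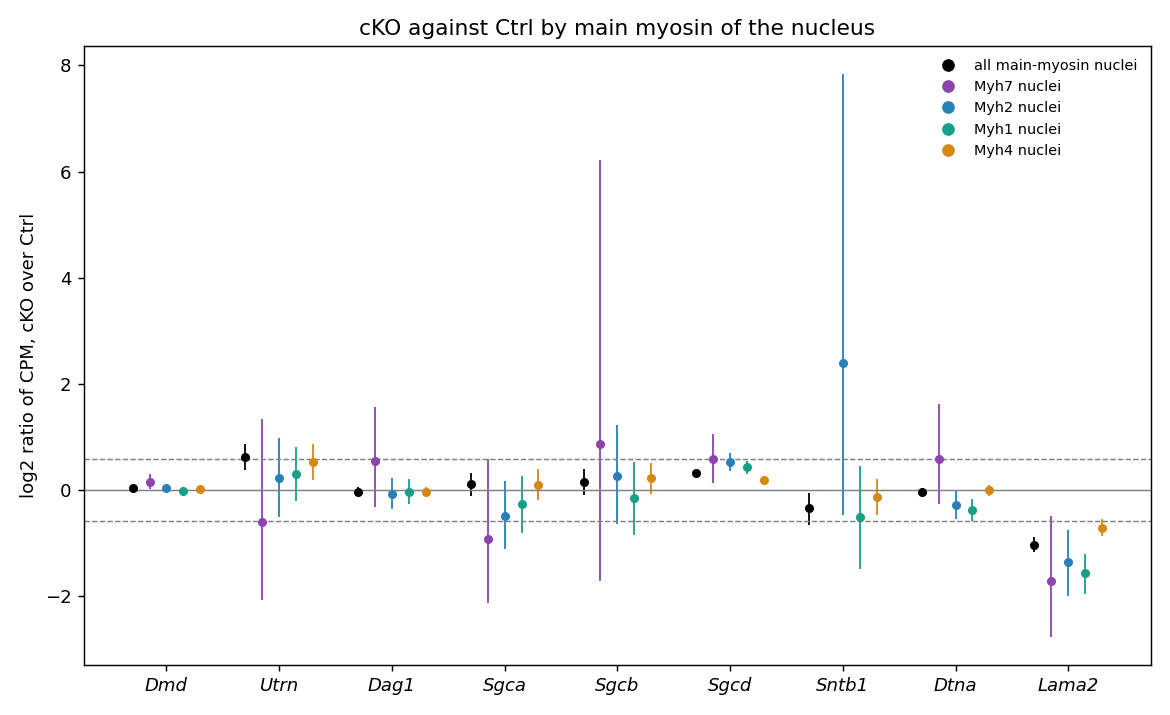
Log2 ratio of cKO over Ctrl CPM (vertical axis) for each gene (horizontal axis) in all main-myosin nuclei (black) and in Myh7, Myh2, Myh1 and Myh4 nuclei (colours), with exact 95% intervals for counting error; dashed lines mark 1.5-fold, and ratios with 0 UMIs in a library are left out. Lama2 is below the lower line in all 5 sets of nuclei, Sgcd is above 0 in all 5, and Dmd stays near 0.

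At 500 UMIs per nucleus, 7.14% of Ctrl main-myosin nuclei held a Lama2 UMI (6.13% to 8.25%), against 4.03% in cKO (3.28% to 4.89%). RNA of FAPs moved in the same direction in these nuclei. The 6 FAP markers summed to 42.6 CPM in Ctrl main-myosin nuclei and 25.3 CPM in those of cKO, a log2 ratio of -0.75 (-1.07 to -0.45), and none of them was at 0. A list of 8 further FAP genes, not used as markers, summed to 198 and 145 CPM, a log2 ratio of -0.44 (-0.57 to -0.31). The Ctrl main-myosin level of these 8 genes was 3.29% of their FAP level (0.987% to 11.2% across genes), and 2.13% in cKO (0.536% to 7.68%). The top of the range was Bicc1 in both libraries. Lama2 was at 13.4% of its FAP level in Ctrl, above all 8 genes, and at 4.08% in cKO, above all but Bicc1. The part of FAP RNA in these levels was not tested.

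Nuclei without any UMI of those FAP genes, a choice made after seeing these values, numbered 1622 in Ctrl and 1981 in cKO. In them Lama2 was at 188 and 103 CPM, a log2 ratio of -0.87 (-1.05 to -0.69), and a nucleus with 0 UMIs of these genes may still hold FAP RNA at this depth. Utrn in the same nuclei was at 25.1 and 43.9 CPM, a log2 ratio of 0.80 (0.44 to 1.17). The part of free RNA in either difference was not tested.

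Of the 9 classes plotted, Lama2 was highest in MTJ nuclei, at 5594 CPM (5285 to 5915) for Ctrl nuclei and 5005 CPM (4628 to 5404) for cKO nuclei. This was 23.3-fold the main-myosin level (21.6 to 25.1) for Ctrl and 42.7-fold (38.2 to 47.8) for cKO. NMJ nuclei were at 1889 CPM in Ctrl (1696 to 2098), a step over FAP nuclei that was within its interval, and had 1793 CPM in cKO (1579.8 to 2027), while the narrower NMJ set had 3392 and 3157 CPM. Both junctional classes thus held far more Lama2 than the rest of the fibre, and their levels differed little between the libraries, with log2 ratios of -0.16 in MTJ (-0.30 to -0.02) and -0.08 in NMJ nuclei (-0.31 to 0.16). The further FAP genes in MTJ nuclei were at 1.97% and 2.02% of their FAP level in Ctrl and cKO, while Lama2 there exceeded its own FAP level.

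Lama2 in FAP nuclei stood at 1796.5 CPM (1677 to 1922) for Ctrl and 2871 CPM (2549 to 3223) for cKO. The cKO level was 1.60-fold higher (1.39 to 1.83), and 54.2% of Ctrl against 74.1% of cKO FAP nuclei held a Lama2 UMI at 500 UMIs. The 10 fibre genes in the same nuclei were at 32.3% of their main-myosin level in Ctrl and 15.5% in cKO. The part of fibre RNA in the Lama2 difference was not tested. FAPs were also fewer, at 5.70% of Ctrl and 1.61% of cKO nuclei. They held 17.9% of all Lama2 UMIs of Ctrl and 13.1% of those of cKO, and MTJ nuclei held 26.1% and 29.9%. Endothelial nuclei had 189 and 207 CPM, from 17 and 7 UMIs. In classes of a few nuclei, 5 nuclei with satellite cell markers in each library held 48 and 11 Lama2 UMIs, which is 5942 CPM (4381 to 7878) for Ctrl nuclei and 1362 CPM (680.1 to 2438) for cKO nuclei, and 3 and 2 nuclei with tenocyte markers held 17 and 11. A single nucleus held 30 of the 48 Ctrl satellite UMIs, and another 16 of the 17 Ctrl tenocyte UMIs.

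**Figure D4:**
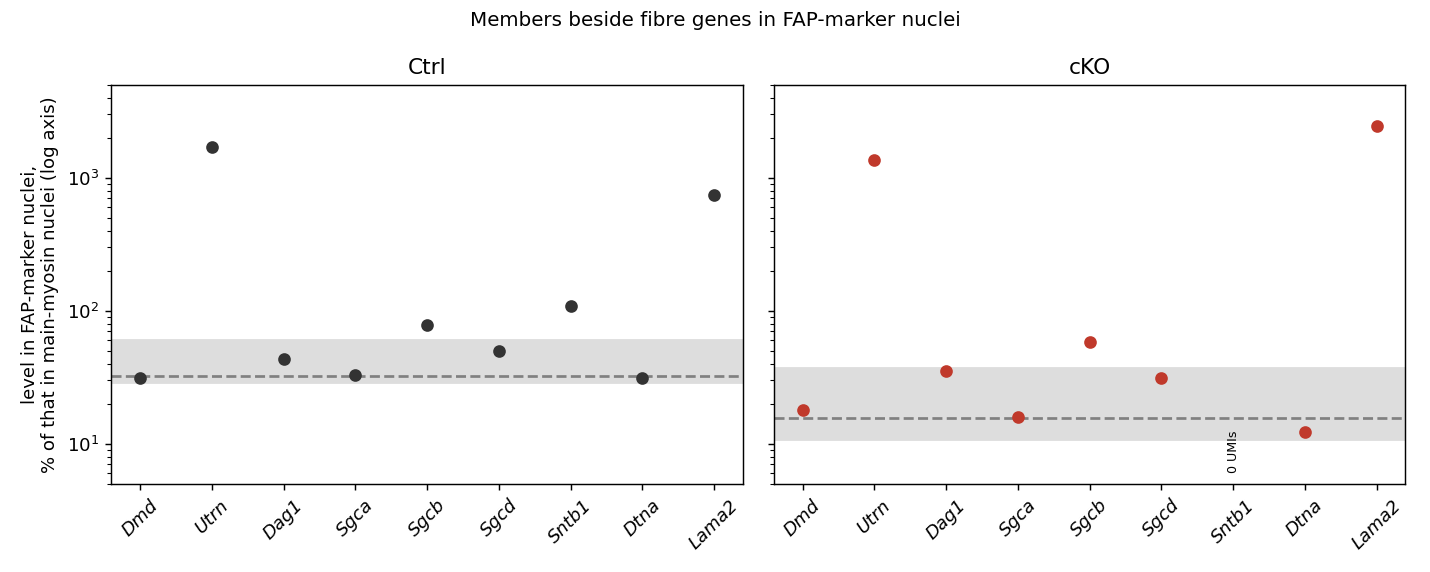
Level of each gene in FAP nuclei as a percent of its level in main-myosin nuclei (vertical log axis) in Ctrl (left) and cKO (right); the dashed line is the same percent for 10 fibre genes summed and the grey band is the range across them. Utrn and Lama2 lie far above the band in both libraries, and Dmd, Dag1, Sgca, Sgcd and Dtna lie within it, Dag1 and Sgcd only because Acta1 sets its top.

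Read by class, 3 of the 9 members were past 1.5-fold above main-myosin nuclei in both libraries in NMJ nuclei (Utrn, Dtna and Lama2), where 17.5% of the 8780 genes tested were, and none was below, where 3.64% were. In MTJ nuclei Utrn, Sgcd and Lama2 were above, against 17.0% of genes, and none was below, against 6.68%. The Ctrl interval of Utrn there, 0.965 to 2.94-fold, includes 1. In FAP nuclei Utrn and Lama2 were above, against 32.6% of genes, and Dmd, Dag1, Sgca, Sgcd and Dtna were below, against 9.10%. In endothelial nuclei Utrn was above, against 47.8% of genes, and Sgcd and Dtna were below, against 4.98%. The cKO interval of Dtna there, 0.202 to 1.04-fold, includes 1.

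The wider pathway was read in main-myosin nuclei from 5 lists of 61 genes, of which 51 had at least 20 UMIs. Past 1.5-fold, 2 were higher and 10 lower in cKO, where 9.34% of all genes were higher and 12.3% lower, and their median log2 ratio was -0.06, the same to 2 decimals as that of all genes. Among the 13 cytoplasmic partners of the complex, 0 were higher and 2 lower. The larger of these differences was that of Nos1, the neuronal nitric oxide synthase that docks on the complex, with a log2 ratio of -1.08 (-1.21 to -0.95). Nos1 was at 284 CPM in the Ctrl and 134 CPM in the cKO library. This difference was larger in size than those of Dmd, Utrn, Sntb1 and Dtna in the same nuclei.

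Of the further sarcoglycan and sarcospan genes, 0 of 4 were past 1.5-fold, with log2 ratios from -0.06 to 0.43. Among the enzymes that build the laminin-binding glycan of dystroglycan, 11 of 15 could be read, and 1, Dpm2, was lower at -0.59 (-1.45 to 0.22). The laminin and basement membrane list had 13 genes with enough UMIs, of which 1 was higher and 7 lower, against the same 9.34% and 12.3% of all genes, with a median of -0.60. With a minimum of 50 UMIs, 1 was higher and 5 lower of 11. Lamb2, the laminin β2 chain, was higher at 0.97 (0.59 to 1.35), and Col4a1, a collagen IV chain, was lower at -1.17 (-1.92 to -0.47). Col6a1 had the lowest value of the list, -1.22 (-2.69 to 0.07), from 21 UMIs in Ctrl and 7 in cKO. Several of these matrix genes are also made by FAPs and vessels. The FAP markers were lower in these cKO nuclei, as given above, and the 7 endothelial markers summed to 30.1 CPM in the Ctrl and 25.9 CPM in the cKO library; their part in the list was not tested. Of 10 integrin and membrane repair genes 1 was past 1.5-fold, Trim72, whose protein MG53 patches the membrane, at 1.22 (0.56 to 1.91).

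Across 18 points, 9 classes of at least 30 nuclei in each library, nuclei of mixed or undetermined myosin included, the gene most like Dmd among 8255 candidates was Dag1, with a Pearson r of 0.980 on log2(CPM + 10). Pde4dip (0.976) and Pdlim3 (0.964) came next. The gene most like Utrn was Calcrl (0.949), a receptor subunit abundant in endothelium, followed by Hdac7 (0.947) and Plcb4 (0.937). Sgcd was most like Akap6 (0.956), Dtna most like Fgf13 (0.963) and Lama2 most like Nav3 (0.943). These coefficients are descriptions over points that share 2 libraries, and the lowest first coefficient of the 9 members was 0.852, for Sntb1 with Ctsc.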

How the data were processed

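Nuclei of GP muscle were profiled in 1 Ctrl and 1 cKO library with a droplet kit that reads transcript ends. The labels and the study's methods name different versions of the kit, and the sample titles name mouse 1 where the labels' protocol pools 3 muscles. The authors aligned reads to mm10 (GRCm38) with Cell Ranger 3.1.0 and deposited raw counts of UMIs for 27998 genes per barcode. The study's methods give default settings, but whether the reference counted introns is not given in the sources used here, and long genes such as Dmd, Sgcd and Lama2 could be affected by that choice, so levels are compared between classes of nuclei and not between genes.

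Nuclei were kept with at least 100 genes, at least 500 UMIs and at most 10% of mitochondrial UMIs, 3833 in Ctrl and 3908 in cKO. Scrublet, run through scanpy 1.11.5 at an expected rate of 0.06, called 0 doublets by itself, and the top-scoring 8% of each library, 307 and 313 nuclei, were left out in place of its call. A marker class needed at least 3 UMIs from at least 2 markers, at least 0.1% of the UMIs of the nucleus and more than any other list. The main myosin held at least 60% of at least 3 myosin UMIs. Raw counts were summed per class and divided by all UMIs of the class to give CPM. Intervals of 95% were exact Poisson for CPM, Clopper-Pearson for shares and exact conditional binomial for ratios. PCR copies are collapsed by UMIs, and all intervals cover counting error only. Called means past 1.5-fold among genes with at least 20 UMIs over both libraries, for classes in both libraries. Shares of nuclei with a UMI come from nuclei thinned to 500 UMIs. Ratios and their intervals were run on simulated independent Poisson counts, the model that the intervals assume. This simulation does not cover UMIs that cluster in single nuclei. Sums and intervals used scipy 1.17.1, numpy 2.4.6 and pandas 2.3.3 under Python 3.11.15, and plots matplotlib 3.10.9.

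The 9 members and the lists were chosen with earlier results of these data known. All 9 members are named, and from the lists the 3 genes past 1.5-fold with the largest ratio in each direction, the genes behind counts of 5 or fewer and, for likeness, the 3 genes with the highest r. Some genes of the lists are counted but not reported here by name. Positions are from GENCODE M21 and promoter windows from RefSeq. No sequence is shown for Dtna or Sntb1.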

Additional observations from a re-analysis of the deposited data

Results flagged for a closer look

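The log2 ratio of cKO over Ctrl for Lama2 differed in sign between classes of nuclei. It was 0.68 in FAP nuclei, and -1.72 in Myh7, -1.37 in Myh2, -1.58 in Myh1 and -0.72 in Myh4 nuclei. The counting intervals of the FAP value and of each myosin value lie on opposite sides of 0. As the mean of each nucleus's own CPM, the Lama2 log2 ratio cKO over Ctrl in FAP nuclei was 0.22. With 1 library per group the difference between classes was not tested.

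Dmd also moved in opposite directions in classes outside the fibres, with a log2 ratio of 1.20 in endothelial nuclei and -0.78 in FAP nuclei. Fibre genes summed in the same classes moved from 28.3% to 41.6% of their main-myosin level in endothelial nuclei and from 32.3% to 15.5% in FAP nuclei. This difference was not tested either. With no nuclei removed as doublets, the Dmd log2 ratio cKO over Ctrl in FAP nuclei was -0.34.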

How the results depend on the processing

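No paired analysis was possible because each group has 1 library, and its number names no shared animal. Of 1422 values recomputed under alternatives, 1282 stayed within their counting interval, 139 moved outside it and 1 value past 1.5-fold changed sign, the Lama2 ratio of mural over main-myosin nuclei in Ctrl, at -0.10 with all nuclei of no non-fibre class as the base. The Lama2 log2 ratio of cKO over Ctrl in main-myosin nuclei stayed between -1.30 and -0.76 over 10 alternatives, that of Sgcd between 0.27 and 0.43 and that of Utrn between 0.02 and 0.80. With the 4 main myosins weighted equally, which gives the 18 Ctrl Myh7 nuclei the weight of a whole class, the log2 ratios were 0.09 for Dag1, 0.05 for Dmd, -1.30 for Lama2, -0.50 for Sgca, 0.43 for Sgcd, 0.29 for Sntb1 and 0.02 for Utrn, so that Dag1, Sgca and Sntb1, all short of 1.5-fold before, changed sign. With Malat1 and mitochondrial genes left out of the total, which moved the median of all genes from -0.06 to 0.02, they were 0.04 for Dag1, 0.11 for Dmd, 0.04 for Dtna and 0.40 for Sgcd, where Dag1 and Dtna changed sign. With all nuclei of no non-fibre class they were 0.05 for Dmd and -0.76 for Lama2, and with the mean of each nucleus's own CPM 0.07 for Dmd. With the main myosin read at 500 UMIs they were -0.14 for Dtna, -1.18 for Lama2 and 0.41 for Sgcd. A main myosin share of 80% gave -0.89 for Lama2, and nuclei with 0 UMIs of FAP genes gave -0.87, an alternative chosen after seeing the data. The number of members higher by 1.5-fold, 1 (Utrn), became 0 with equal weights, with all nuclei of no non-fibre class, with at least 5 marker UMIs, with the mean of own CPM and with no doublets removed. Beyond the weighting and the total, the cause of these shifts was not tested. Depth limits the sparse members: Utrn, Sgca, Sgcb and Sntb1 had at most 384 UMIs in the main-myosin nuclei of a library, and most differences of Sgca, Sgcb and Sntb1 in small classes were within the counting interval. With a minimum of 50 UMIs in place of 20, 8730 genes could be read and 638 were higher and 829 lower by 1.5-fold, against 1024 and 1353 of 10966.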
